A study of Mus musculus with 6 samples.

Results

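The genes described here encode the enzymes and carriers that handle glutathione, peroxides and superoxide: glutathione S-transferases (GST), glutathione peroxidases (GPX), peroxiredoxins (PRDX), thioredoxins with their reductases and relatives (TXN), and superoxide dismutases (SOD). Members were taken by gene symbol, as every listed gene whose symbol is Gsta, Gstk, Gstm, Gsto, Gstp, Gstt, Gstz, Mgst, Gpx or Prdx followed by a digit, begins with Txn, or is Sod1, Sod2 or Sod3. This gave 54 of the 16862 genes in the deposited table. Testing was limited to the 15116 genes that reached 10 in 3 or more libraries, among them 53 of the 54 members. Gpx6, the remaining member, had values of 0.493 to 7.42 in wild type and 0.0856 to 2.26 in knockout and was not tested.

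RNA was sequenced from male gonads of C57BL/6 mouse embryos at E13.5, counted in embryonic days. The 3 wild-type libraries are numbered 1, 3 and 4, and the 3 knockout libraries, from embryos with the genotype L/H-Pgds-/-, are numbered 5, 7 and 8. The enzymes lost, encoded by Ptgds (L-Pgds) and Hpgds (H-Pgds), make prostaglandin D2. The labels name no tissue-specific driver, and they give no allele or treatment that both groups share. The labels describe different littermates, do not name the litters, and do not say which part of either gene was deleted or whether embryos were pooled in a library.

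Glutathione is a small thiol peptide that cells hold at high concentration. Glutathione S-transferases join it to electrophilic compounds, and glutathione peroxidases use it to reduce hydrogen peroxide and lipid peroxides, after which glutathione reductase restores it with NADPH. Peroxiredoxins also reduce peroxides and are recharged mainly by thioredoxin, which the selenoprotein thioredoxin reductases keep in its reduced form, while superoxide dismutases turn superoxide into the hydrogen peroxide that both branches remove. In the testis, the cytochrome P450 enzymes of steroid-making Leydig cells release oxidants as a by-product, and male germ cells are known to depend on Gpx4.

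Values are the authors' upper-quartile normalised pseudo-counts, an adjusted signal and not reads, so the sequencing depth behind them is unknown and no counting interval is given. Their totals were 22881124 to 23734462 in wild type and 21657342 to 21846849 in knockout. Ptgds, the label check, was 6560.1 to 8712 in wild type and 2.94 to 15.2 in knockout. Hpgds, which is itself a glutathione S-transferase of the sigma class although the name rule does not take it, was 45.0, 47.5 and 55.0 in wild-type libraries 1, 3 and 4 and 87.8, 87.3 and 104 in knockout libraries 5, 7 and 8. Its values were thus higher in every knockout library, with a log2 change of 0.90 (limma, SE 0.21, adjusted p = 0.00853), and because the deleted part is not given this does not check the label. The call was lost when a trend on transcript length and GC content, described below, was removed, at 0.60 (limma adjusted p = 0.0917) and 0.48 (adjusted p = 0.124) in the 2 versions of that fit. All markers of germ, Sertoli, Leydig, interstitial and endothelial cells that the table lists reached 10 in at least 1 library, as did those of macrophages. Tissue of this kind mixes many cell types, so fewer cells of a type and less RNA per cell cannot be told apart.

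Most members were lower in the knockout, and none passed the test as higher. Of the 53 tested, 30 fell (56.6%) and 0 rose at a limma adjusted p (Benjamini-Hochberg over all genes tested) under 0.05. Across all genes tested, 17.0% fell and 17.3% rose, as 2571 and 2609 genes. With libraries scaled to equal totals, which raised the median change of all genes by 0.1, 1687 genes and 21 members fell and 3507 genes and 0 members rose. The median log2 change of the 53 was -0.39, against -0.03 over all genes, and 50 of them had a change below 0, against 52.6% of all genes. For 34 members (64.2%) every knockout value lay below every wild-type value, which held for 25.6% of all genes, and for 0 members every knockout value lay above, which held for 24.7% of all genes. Among the 23 members that did not pass were some of the most abundant ones, such as Gstm1, Gstm2 and Prdx1. Gstm1 and Gstm2 did fall when wild-type library 1 was left out, and Prdx1 when knockout library 7 was. Wild-type library 4 was the highest of its group for 38 of the 53 members and for 4513 of the 15116 genes, and without it 19 members fell. The 30 fell by modest amounts, from -0.29 for Txndc12 to -0.78 for Gpx3 on the log2(value + 1) scale, on which all log2 changes here are given.

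**Figure D1:**
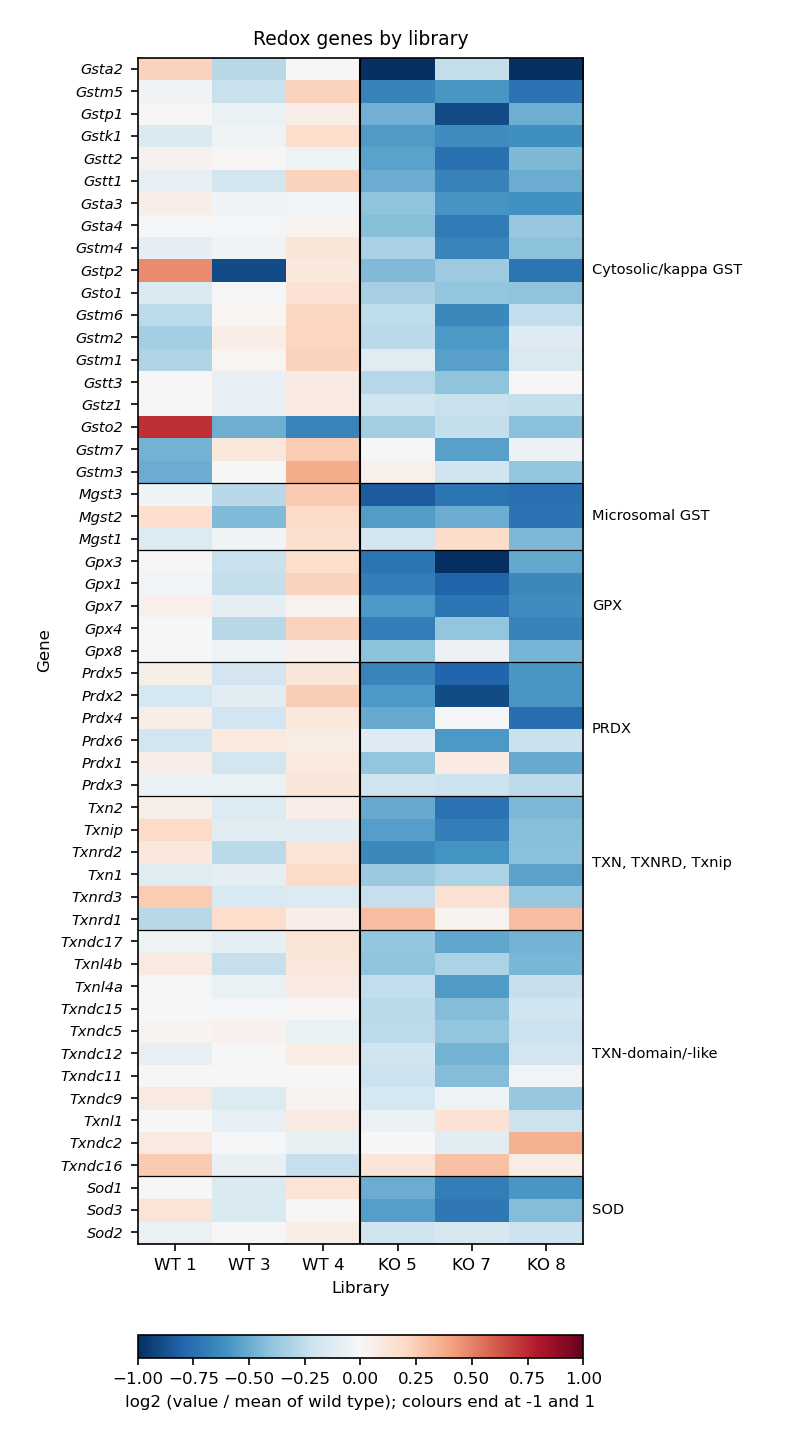
Heat map of the 53 tested members (rows, by class) in the 6 libraries (columns), coloured by the log2 ratio of each value to the gene's wild-type mean, with colours ending at -1 and 1. Knockout columns are mostly on the lower (blue) side, and library 7 differs from libraries 5 and 8 for members such as Gsta2, Prdx4 and Gstm7.

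**Figure D2:**
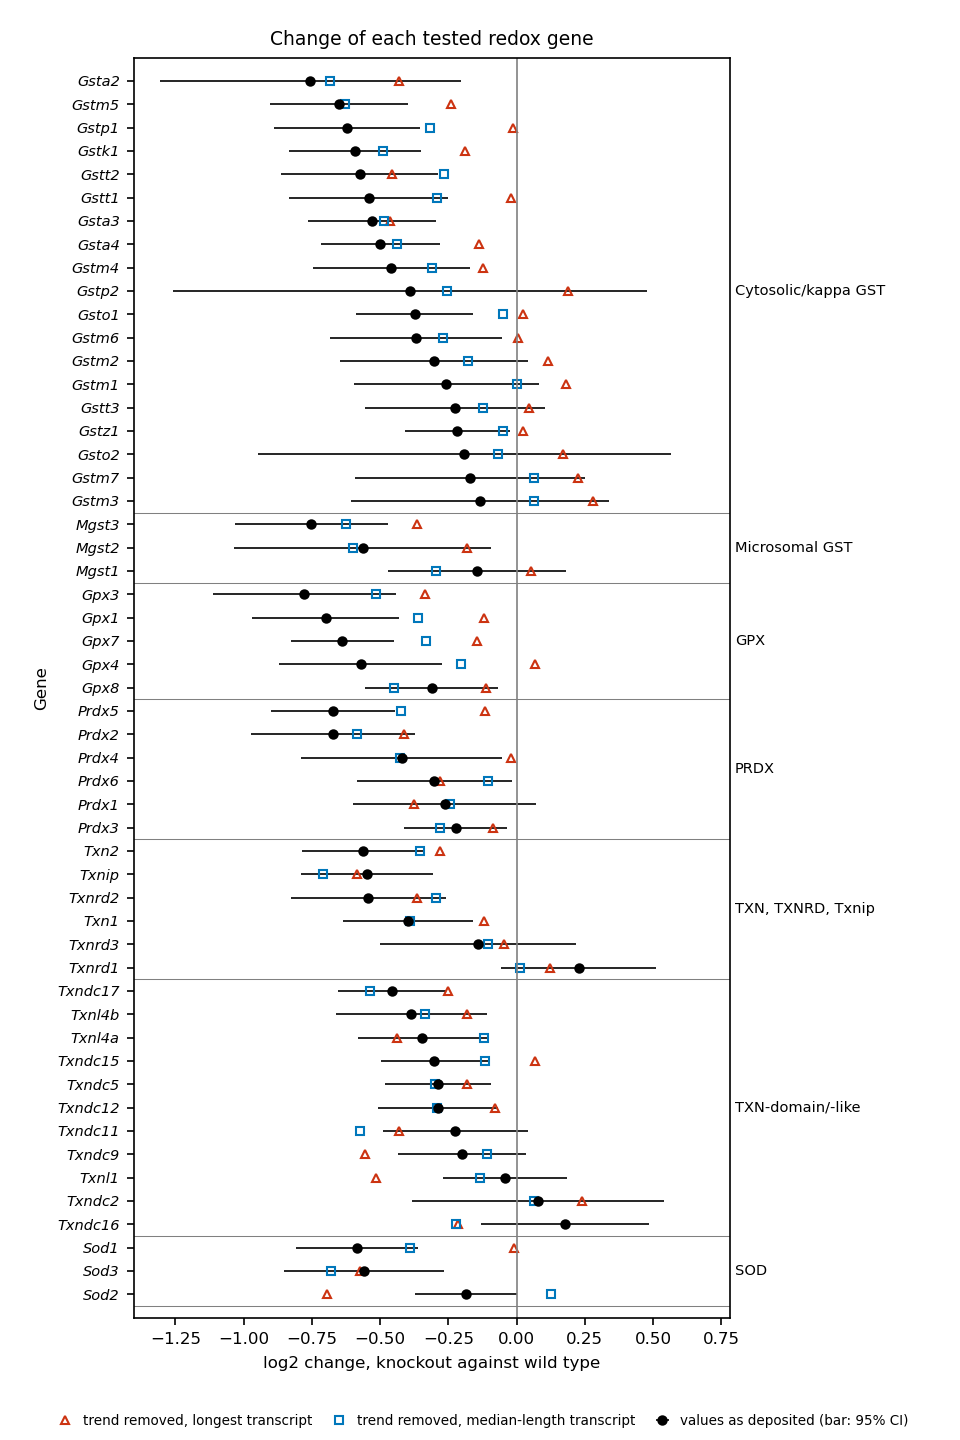
Log2 change of each tested member, knockout against wild type, with its 95% confidence interval (black), grouped by class, beside the change with the length trend removed on the longest (red triangles) and the median-length transcript (blue squares). All 30 members past the threshold lie below 0, and 3 of the 53 black points lie above 0.

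Gene length separated genes in the same direction. Members had a median length of 1377 nucleotides in their longest annotated transcript, against 3121 over the 14449 tested genes with an annotated length, while GC content was nearly equal, with medians of 50.5% and 50.6%. Over all genes, 46.5% of the shortest of 5 equal groups (216 to 1792 nucleotides) fell, and 34 of the 53 members are in that group, of which 22 fell (64.7%). In the next group, 1793 to 2673 nucleotides, 23.8% of all genes and 3 of 7 members fell (42.9%). In the middle group 10.4% of all genes and 3 of 6 members fell, and in the fourth 5.12% and 2 of 5 (40.0%). The 1 member in the longest group did not pass, where 1.70% of all genes fell. The members' share was above that of all genes in every group but the longest, with few members outside the shortest.

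A further fit took out of each library the trend of its log2 values with length and GC content. With the longest transcript as the length, 11 members fell (20.8%) and 0 rose, against 6.64% and 6.07% of all genes. With the transcript of median length, a choice made after the data were seen, 23 members fell (43.4%) and 0 rose, against 11.3% and 12.7%. Of the 30 members that fell without removal, 7 also fell in the first of these fits and 19 in the second. The median log2 change was -0.12 in the first, with 38 of 53 below 0 (52.4% of all genes), and -0.30 in the second. How much of the fall goes with transcript length thus depends on which transcript stands for the gene, and the part that length has in the result was not tested further.

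**Figure D3:**
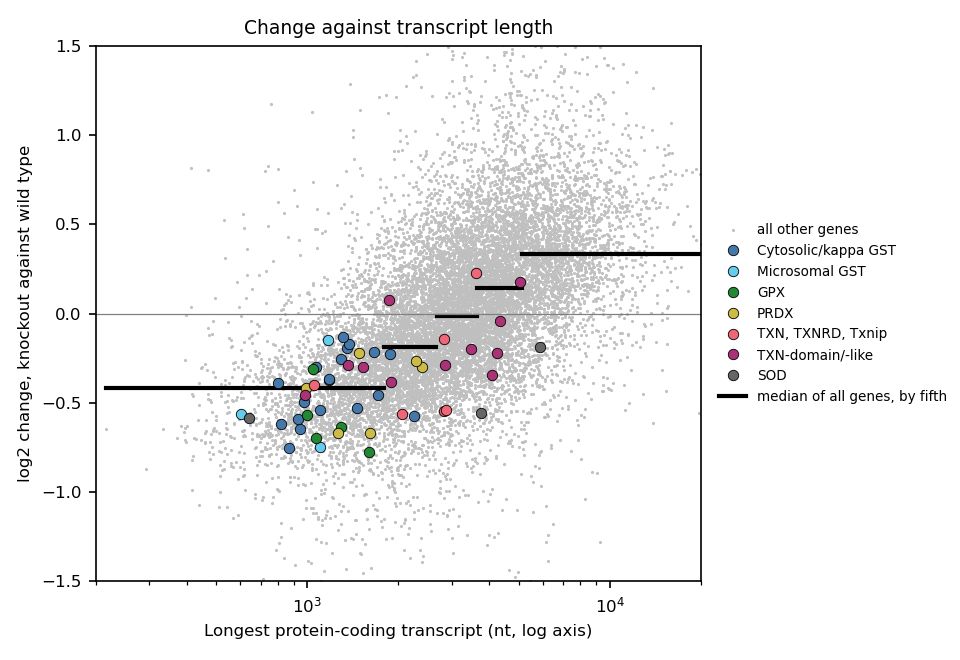
Log2 change of tested genes, knockout against wild type, by length of the longest protein-coding transcript (nucleotides, log axis). Grey points are other genes, coloured points members by class and black lines the medians of all genes in 5 length groups, which run from -0.42 in the shortest to 0.33 in the longest.

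Members past the threshold in all 3 fits numbered 5 of 53 (9.43%), all lower, against 2.12% of all genes lower and 4.50% higher. They were Gsta3, Mgst3, Sod3, Txn2 and Txnip, a soluble transferase, a membrane-bound transferase, the secreted superoxide dismutase, the mitochondrial thioredoxin and the thioredoxin-binding protein. Each also passed when any 1 library was left out and when libraries were scaled to equal totals. They come from 4 of the 7 classes, and their values are given with those classes below.

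Many redox genes are known to carry an antioxidant response element, the binding motif of the transcription factor NRF2, near their start. Its core was searched on both strands as TGACNNNGC in the 250 bases before each start in RefSeq promoter windows of GRCm38.p6. Windows were found for 48 of the 54 members. The core was present in 10 of the 66 member windows (15.2%), each from a different gene, against 10.2% of all 32851 windows and 11.6% of the windows of tested genes. Counted by gene, these shares were 20.8%, 11.5% and 13.9%. Windows of 5 genes are printed to show where the core lies in members that fell (Sod1, Gstm5), in members that did not pass (Txnrd1, Prdx1) and in a partner that rose (Gclm), with the core in capitals. They are Txnrd1 (chr10:82858956-82859205), Prdx1 (chr4:116685349-116685598), Sod1 (chr16:90220512-90220761), Gstm5 (chr3:107895604-107895853) and, from outside the members, Gclm (chr3:122245307-122245556), a subunit of the first enzyme of glutathione synthesis. All are on the plus strand, written 5′ to 3′.
Txnrd1: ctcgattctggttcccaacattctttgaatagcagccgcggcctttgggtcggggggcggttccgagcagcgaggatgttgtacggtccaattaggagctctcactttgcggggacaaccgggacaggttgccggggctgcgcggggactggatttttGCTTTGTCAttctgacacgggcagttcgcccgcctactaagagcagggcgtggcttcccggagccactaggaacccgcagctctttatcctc
Prdx1: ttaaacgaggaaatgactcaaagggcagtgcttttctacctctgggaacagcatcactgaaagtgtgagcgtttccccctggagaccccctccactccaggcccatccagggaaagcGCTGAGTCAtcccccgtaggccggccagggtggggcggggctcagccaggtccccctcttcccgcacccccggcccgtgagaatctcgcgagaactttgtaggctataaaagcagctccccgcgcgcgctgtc
Sod1: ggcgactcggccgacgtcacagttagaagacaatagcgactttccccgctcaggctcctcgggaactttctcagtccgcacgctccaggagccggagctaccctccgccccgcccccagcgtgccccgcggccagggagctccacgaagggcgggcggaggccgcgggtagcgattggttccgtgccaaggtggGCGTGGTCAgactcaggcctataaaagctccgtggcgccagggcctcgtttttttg
Gstm5: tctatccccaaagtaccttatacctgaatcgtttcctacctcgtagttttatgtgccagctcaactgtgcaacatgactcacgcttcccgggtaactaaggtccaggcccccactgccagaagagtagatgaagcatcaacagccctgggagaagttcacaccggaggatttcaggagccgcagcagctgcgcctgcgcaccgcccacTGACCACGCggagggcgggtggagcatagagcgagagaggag
Gclm: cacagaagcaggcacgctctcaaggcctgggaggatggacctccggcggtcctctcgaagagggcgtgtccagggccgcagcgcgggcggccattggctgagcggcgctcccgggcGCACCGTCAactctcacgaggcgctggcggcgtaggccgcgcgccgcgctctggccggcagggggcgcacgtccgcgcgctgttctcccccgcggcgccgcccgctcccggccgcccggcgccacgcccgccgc
Counted from its leftmost base, the core lies 92 bases before the start in Txnrd1, 133 in Prdx1, 56 in Sod1, 42 in Gstm5 and 134 in Gclm. In Prdx1 it overlaps the letters TGANTCA, the core of an AP-1 motif. Of the 10 members with the core, 4 fell (Gsta3, Gstm5, Sod1 and Txndc5) and 6 did not pass (Gstm7, Mgst1, Prdx1, Txndc11, Txndc2 and Txnrd1). Of the 38 with a window and no core, among them the untested Gpx6, 22 fell, and of the 6 with no window, 4. A match is a run of letters and not a bound site.

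The cytosolic and kappa glutathione S-transferases were the largest class. Of 19 tested, 10 fell and 0 rose, and the median log2 change was -0.39. For 10 of the 19 every knockout value lay below every wild-type value, which held for 25.6% of all genes. Of all genes 17.0% fell and 17.3% rose, and in the shortest length group 46.5% fell. With the length trend removed, 2 of the 19 fell on the longest transcript and 5 on the median one, against 6.64% and 11.3% of all genes. Gstm5 (NCBI gene 14866, chromosome 3, 107699216 to 107701603 in mm9, the build of all gene coordinates below) is a mu-class enzyme and is known for its expression in testis and brain. Its values were 3198, 2811 and 3842 in wild-type libraries 1, 3 and 4 and 2063, 2197 and 1967 in knockout libraries 5, 7 and 8. The knockout libraries were all below the wild-type ones, with means of 2076 ± 116 and 3283 ± 521 (SD, n = 3 each) and a log2 change of -0.65 (limma, SE 0.11, adjusted p = 0.00297). With the trend removed Gstm5 was at -0.24 (limma adjusted p = 0.0566) on the longest transcript and -0.63 (adjusted p = 0.00276) on the median one. Gsta3 (NCBI gene 14859, chromosome 1, 21230670 to 21255640), an alpha-class enzyme that also isomerises steroid precursors, had 791, 732 and 739 in wild type and 571, 502 and 495 in knockout. These groups did not overlap either, and the log2 change was -0.53 (limma, SE 0.11, adjusted p = 0.00464). It was -0.47 (adjusted p = 0.017) and -0.49 (adjusted p = 0.00905) in the limma fits with the trend removed, so Gsta3 hardly moved between the fits.

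Gsta4 (NCBI gene 14860, chromosome 9, 78039773 to 78057156), which conjugates the lipid aldehyde hydroxynonenal, was 4619, 4590.4 and 4759 in wild type and 3475, 2871 and 3582 in knockout. Its log2 change was -0.50 (limma, SE 0.10, adjusted p = 0.00441) and the groups were apart. The kappa-class enzyme Gstk1, found in mitochondria and peroxisomes, was 832, 891 and 1039 in wild type and 622, 599.7 and 602 in knockout. The 3 knockout values lay within a narrow range, and the log2 change was -0.59 (limma, SE 0.11, adjusted p = 0.00335). For Gstt2, a theta-class enzyme, 393, 386 and 369 in wild type compared with 264, 228 and 280.1 in knockout, a log2 change of -0.57 (limma, SE 0.13, adjusted p = 0.0079). The theta-class Gstt1, at 552 to 737 in wild type and 395 to 444 in knockout, changed by -0.54 (limma adjusted p = 0.0108), and it missed the threshold without wild-type library 4. Gsto1, an omega-class enzyme at 1389 to 1699.8 in wild type and 1162 to 1215 in knockout, changed by -0.37 (limma adjusted p = 0.0146) and also missed it without that library. With the trend removed on the longest transcript, Gstt2 passed at -0.46 (limma adjusted p = 0.0326). Gsta4 at -0.14 (limma adjusted p = 0.473) and Gstk1 at -0.19 (adjusted p = 0.255) did not pass there. Neither did Gstt1 at -0.02 (limma adjusted p = 0.908) or Gsto1 at 0.02 (adjusted p = 0.885). On the median transcript Gsta4 and Gstk1 passed, and Gstt2, Gstt1 and Gsto1 did not, with Gsto1 at -0.05 (limma adjusted p = 0.724).

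Gstp1 (NCBI gene 14870, chromosome 19, 4035411 to 4037912), the pi-class enzyme that is widespread in fetal tissue, was 1653, 1579 and 1739.9 in wild type and 1186, 890.2 and 1182 in knockout. The groups were apart and the log2 change was -0.62 (limma, SE 0.12, adjusted p = 0.00416), but -0.01 with the length trend removed on the longest transcript and -0.32 on the median one. Of the 50-base words in its transcripts, 62.3% also occur in Gstp2, so reads of these neighbours could be shared and both values are uncertain. Gsta2 was 183, 128 and 156 in wild type and 76.6, 132 and 74.3 in knockout, where library 7 lay within the wild-type range. Its log2 change was -0.76 (limma, SE 0.25, adjusted p = 0.0385), and its call was lost without knockout library 5 or 8 or wild-type library 1 or 4, with an adjusted p of up to 0.135. Of its 50-base words 64.2% occur in other genes, mostly in Gsta1. Gstz1, which isomerises maleylacetoacetate in tyrosine breakdown, had groups apart and did not pass, at -0.22 (limma adjusted p = 0.0765). Neither did Gstp2 at -0.39 (limma adjusted p = 0.462), Gstt3 at -0.23 (limma adjusted p = 0.261) or the omega-class Gsto2 at -0.19 (limma adjusted p = 0.687), whose groups all overlapped.

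The mu-class genes form a cluster of 7 on chromosome 3, from 107699216 to 107847777 in mm9, in the order Gstm5, Gstm7, Gstm6, Gstm3, Gstm2, Gstm1 and Gstm4. Of the 7, the genes at either end passed, Gstm5 as given above and Gstm4 at -0.46 (limma adjusted p = 0.021), a call lost without knockout library 7 or wild-type library 4. The 5 genes between them did not pass, but 3 of them, Gstm1, Gstm2 and Gstm6, fell when wild-type library 1 was left out. Shared 50-base words make up 28.8% of Gstm3, 23.1% of Gstm1, 11.5% of Gstm6 and 9.36% of Gstm2, so their values are less certain. Gstm2 had the highest mean of the class, 11964, 15843 and 17571 in wild type and 12566, 10184 and 13869.5 in knockout. Wild-type library 1 lay below knockout libraries 5 and 8, and the log2 change of -0.30 (limma, SE 0.16, adjusted p = 0.157) had a 95% interval of -0.65 to 0.04. Without wild-type library 1 it was -0.46 (limma adjusted p = 0.0232). Gstm1 was 11697, 14603 and 16958 in wild type and 13234, 9898 and 12939.6 in knockout, with wild-type library 1 again below knockout libraries 5 and 8 and a change of -0.26 (limma adjusted p = 0.215), or an adjusted p of 0.0475 without wild-type library 1. For Gstm7 the values were 4327, 6485 and 7158 and 5950.1, 4118 and 5743 and the change -0.17 (limma adjusted p = 0.509). Gstm6 was 8029 to 11124 in wild type and 6171 to 8128 in knockout, with a change of -0.37 (limma adjusted p = 0.0674), or an adjusted p of 0.0154 without wild-type library 1. Gstm3 changed by -0.13 (limma adjusted p = 0.651).

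Library 1 was the lowest of the wild type for 6 of these 7 genes, all but Gstm5, and library 7 the lowest of the knockout for Gstm1, Gstm2, Gstm4, Gstm6 and Gstm7. Summed over the cluster, values were 39865, 50242 and 57542 in wild-type libraries 1, 3 and 4 and 42561, 33121 and 43227 in knockout libraries 5, 7 and 8. The summed values of 12 germ cell markers were 43300, 28217 and 34755 in wild type and 32369, 46985 and 29928 in knockout. Those of 12 Sertoli cell markers, the targeted Ptgds included, were 148216, 162144 and 176404 and then 120949, 102971 and 138196. Libraries 1 and 7 thus had the highest germ cell and the lowest Sertoli and Gstm sums of their groups. The part of cell makeup in the Gstm values was not tested.

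**Figure D4:**
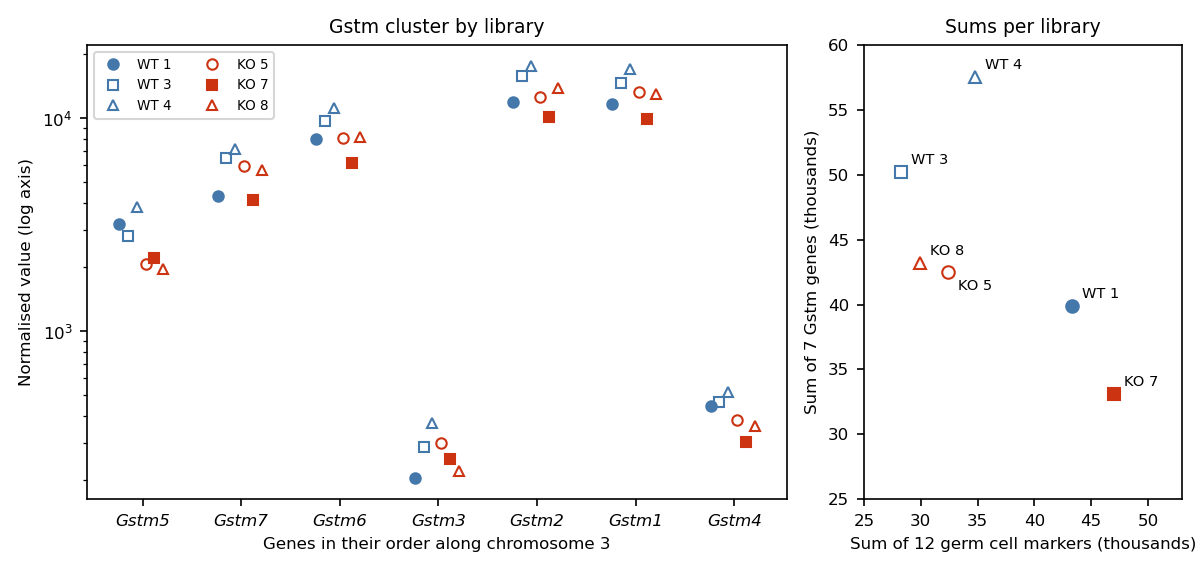
Normalised values of the 7 Gstm genes in the order in which they lie on chromosome 3, by library (log axis), and the sum of the 7 genes against the sum of 12 germ cell markers per library. Wild-type library 1 and knockout library 7, drawn filled, are low for most Gstm genes other than Gstm5 and have the highest germ cell sums.

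The microsomal glutathione S-transferases sit in membranes and are unrelated in sequence to the soluble ones. Of 3 tested, 1 fell and all had changes below 0, where 17.0% of all genes fell and 52.6% had changes below 0. Mgst3 (NCBI gene 66447, chromosome 1, 169302515 to 169323928), which also has peroxidase activity, was 2153, 1829 and 2653 in wild type and 1243, 1335 and 1318 in knockout. The groups were well apart, with means of 2212 ± 415 and 1299 ± 49.0 (SD, n = 3 each) and a log2 change of -0.75 (limma, SE 0.13, adjusted p = 0.00255). With the length trend removed it was -0.36 (limma adjusted p = 0.0285) on the longest transcript and -0.63 (adjusted p = 0.00506) on the median one. Mgst2, which can make leukotriene C4, was low, at 157, 103 and 160.1 in wild type and 94.9, 99.5 and 84.1 in knockout, with groups apart, and did not pass at -0.56 (limma adjusted p = 0.0627). It fell when wild-type library 3 was left out (limma adjusted p = 0.0166). Mgst1, the most abundant of them, was 3409, 3628 and 4185 in wild type and 3277, 4247 and 2746 in knockout, where library 7 was the highest of all 6. Its change was -0.15 (limma, SE 0.15, adjusted p = 0.463).

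All 5 tested glutathione peroxidases fell, each with the knockout below the wild type throughout, and their median log2 change was -0.64. Of all genes 17.0% fell, and 25.6% had every knockout value below every wild-type value. Gpx1 (NCBI gene 14775, chromosome 9, 108241411 to 108242673), the abundant cytosolic selenoprotein that reduces hydrogen peroxide, was 14624, 12628 and 17543 in wild type and 9227, 8569.8 and 9573 in knockout. The knockout mean was 61.1% of the wild-type mean, a log2 change of -0.70 (limma, SE 0.12, adjusted p = 0.00283). Gpx3 (NCBI gene 14778, chromosome 11, 54716355 to 54723889), the secreted selenoprotein of blood plasma, was 4439.7, 3774 and 4979 in wild type and 2654, 2029 and 3076 in knockout. This was the deepest fall of any member, at -0.78 (limma, SE 0.15, adjusted p = 0.00427). Gpx7 (NCBI gene 67305, chromosome 4, 108072822 to 108079318), a peroxidase of the endoplasmic reticulum without selenium, was 3203, 2896 and 3167 in wild type and 2071, 1869.9 and 2009 in knockout. Replicates were close in both groups, 3089 ± 168 and 1983 ± 103 (SD, n = 3 each), and the log2 change was -0.64 (limma, SE 0.08, adjusted p = 0.00155).

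Gpx4 (NCBI gene 625249, chromosome 10, 79516255 to 79519184), which reduces lipid peroxides within membranes and guards against ferroptosis, was 2213, 1818 and 2588 in wild type and 1363, 1677 and 1386 in knockout, a log2 change of -0.57 (limma, SE 0.13, adjusted p = 0.00946). Of its 50-base words 61.7% occur in the pseudogene Gpx4-ps2, so its value is uncertain. Gpx8, the other enzyme of the endoplasmic reticulum, changed by -0.31 (limma adjusted p = 0.0498), a call lost when any 1 library but knockout library 7 was left out. No peroxidase passed with the trend removed on the longest transcript, where Gpx1 was at -0.12 (limma adjusted p = 0.361), Gpx3 at -0.34 (adjusted p = 0.0831) and Gpx4 above 0 at 0.07 (adjusted p = 0.756). On the median transcript 4 of the 5 fell, and Gpx4 did not pass at -0.20 (limma adjusted p = 0.315). The calls of the other 4 thus depended on which transcript stood for the gene.

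Of 6 peroxiredoxins, 2 fell and all 6 had changes below 0, where 17.0% of all genes fell and 52.6% had changes below 0. Prdx2 (NCBI gene 21672, chromosome 8, 87493547 to 87498212), the most abundant member of the class in wild type and a cytosolic enzyme known from red cells, was 19023, 19809 and 25475 in wild type and 14389, 11546 and 14292 in knockout. The groups were apart and the log2 change was -0.67 (limma, SE 0.14, adjusted p = 0.00492). Summed values of 9 erythroid markers overlapped between groups, at 39936 to 142627 in wild type and 85355 to 124489 in knockout, and 2 of the 9 fell. Prdx5 (NCBI gene 54683, chromosome 19, 6981309 to 6984135), found in mitochondria, peroxisomes and cytosol, was 4032, 3393 and 4209.6 in wild type and 2455, 2235 and 2589.7 in knockout. Its log2 change was -0.67 (limma, SE 0.10, adjusted p = 0.00195), with means of 3878 ± 429 and 2427 ± 179 (SD, n = 3 each).

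The other peroxiredoxins did not pass with all 6 libraries. Prdx1 and Prdx4 fell when knockout library 7 was left out (limma adjusted p = 0.0173 and 0.00706). Prdx6 fell when wild-type library 1 was left out (limma adjusted p = 0.0358). Prdx1, a cytosolic enzyme, was 18002, 15144 and 18328 in wild type and 13083, 18191 and 12127 in knockout, so that knockout library 7 lay between the higher wild-type values. Its log2 change was -0.26 (limma, SE 0.15, adjusted p = 0.199), with a 95% interval of -0.60 to 0.07. In Prdx4, the secretory-pathway enzyme, library 7 again stood above the other knockout libraries, at 6863, 5731 and 7020.1 in wild type and 4608, 6466 and 3864 in knockout, and a change of -0.42 (limma adjusted p = 0.0736). Prdx3, the mitochondrial enzyme, had groups apart, at 4895 to 5563 in wild type and 4286 to 4455 in knockout, with a change of -0.22 (limma adjusted p = 0.0638). Prdx6, which uses glutathione in place of thioredoxin, was 4882 to 5965 and 3748 to 5109, with a change of -0.30 (limma adjusted p = 0.091). With the trend removed, 0 peroxiredoxins fell on the longest transcript and 4 on the median one, Prdx3 and Prdx4 among them.

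Of the 6 thioredoxins, reductases and Txnip, 4 fell and 0 rose, where 17.0% of all genes fell and 17.3% rose. With the trend removed 2 fell on the longest transcript and 3 on the median one, against 6.64% and 11.3% of all genes. Txn1 (NCBI gene 22166, chromosome 4, 57956245 to 57969283), the cytosolic thioredoxin, was 7377, 7563 and 9179 in wild type and 6233, 6458 and 5554 in knockout. The groups were apart, with a log2 change of -0.40 (limma, SE 0.11, adjusted p = 0.0168), but the call was lost without knockout library 8 or wild-type library 4. With the trend removed Txn1 was at -0.12 (limma adjusted p = 0.374) on the longest transcript and -0.39 (adjusted p = 0.0108) on the median one. Txn2 (NCBI gene 56551, chromosome 15, 77745481 to 77759424), its mitochondrial counterpart, was 6109, 5358 and 6165 in wild type and 4152, 3520.2 and 4296 in knockout. Its log2 change was -0.56 (limma, SE 0.10, adjusted p = 0.00324), then -0.28 (adjusted p = 0.0315) and -0.35 (adjusted p = 0.0139) in the limma fits with the trend removed. Txnip (NCBI gene 56338, chromosome 3, 96362321 to 96365780), which binds and inhibits thioredoxin and restrains glucose uptake, was 5293, 4298 and 4273 in wild type and 3159, 2859 and 3436 in knockout. Its log2 change of -0.55 (limma, SE 0.11, adjusted p = 0.00464) was as large with the trend removed, at -0.58 (adjusted p = 0.00949) and -0.71 (adjusted p = 0.00316).

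Of the 3 reductases, 1 fell, where 17.0% of all genes fell. Txnrd2 (NCBI gene 26462, chromosome 16, 18429904 to 18479166), the mitochondrial reductase, went from 947, 733 and 964 in wild type to 563, 582 and 658 in knockout, a log2 change of -0.54 (limma, SE 0.13, adjusted p = 0.00957). It lost its call in both fits with the trend removed, at -0.37 (limma adjusted p = 0.0794) and -0.30 (adjusted p = 0.0843). Txnrd1 (NCBI gene 50493, chromosome 10, 82296696 to 82360469), the cytosolic reductase whose window is printed above, was 2156, 2948 and 2744 in wild type and 3244, 2663 and 3239 in knockout. Its groups overlapped, and the change of 0.23 (limma, SE 0.13, adjusted p = 0.193), with a 95% interval of -0.06 to 0.51, did not pass. It was 1 of the 3 members with a change above 0, the others being Txndc2 at 0.08 and Txndc16 at 0.18. Txnrd3, the reductase known from developing sperm, was 521 to 690.3 in wild type and 445 to 643 in knockout and did not pass at -0.14 (limma adjusted p = 0.521).

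The thioredoxin-domain and thioredoxin-like genes have more varied tasks, from folding of secreted proteins to splicing. Of 11 tested, 6 fell, where 17.0% of all genes fell, and the median log2 change of the class was -0.29. Txndc5 (NCBI gene 105245, chromosome 13, 38592144 to 38620329), a protein disulfide isomerase and the most abundant of them, was 9378, 9484 and 8813 in wild type and 7709, 7007 and 7950.0 in knockout. The groups did not overlap and the log2 change was -0.29 (limma, SE 0.09, adjusted p = 0.0278), yet the call was lost when any 1 of 5 libraries, all but knockout library 8, was left out. Txndc17, a cytosolic thioredoxin-like reductase, changed by -0.46 (limma, SE 0.09, adjusted p = 0.00441). The splicing proteins Txnl4a and Txnl4b changed by -0.35 (limma adjusted p = 0.0297) and -0.39 (limma adjusted p = 0.0356). Txndc15 and Txndc12, an oxidoreductase of the endoplasmic reticulum, changed by -0.30 (limma adjusted p = 0.0244) and -0.29 (limma adjusted p = 0.0464). These 4 lost their calls without wild-type library 4. The call was also lost without knockout library 7 for Txnl4a, without knockout library 5 or 8 or wild-type library 1 for Txnl4b, without knockout library 5 or wild-type library 1 for Txndc15, and without knockout library 5 or 7 or wild-type library 3 for Txndc12. Txnl1, a proteasome-bound thioredoxin, was nearly level at -0.04 (limma adjusted p = 0.775). Txndc11, Txndc9, Txndc2 and Txndc16 did not pass either, at -0.22 (limma adjusted p = 0.17), -0.20 (limma adjusted p = 0.166), 0.08 (limma adjusted p = 0.795) and 0.18 (limma adjusted p = 0.343). With the trend removed on the longest transcript, Txndc11, Txndc9, Txnl1 and Txnl4a fell, of which Txndc11 also fell on the median one.

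All 3 superoxide dismutases had every knockout value below every wild-type value, and 2 of them fell. The shares over all genes were 25.6% and 17.0%. Sod1 (NCBI gene 20655, chromosome 16, 90220987 to 90226569), the cytosolic copper and zinc enzyme, had the highest wild-type level of any member per kilobase of its longest transcript, 20152, followed by Gstm2 at 14216, Gpx1 at 13929 and Prdx2 at 13298. Dividing by the longest transcript lowers this level for genes with a long rare transcript. Of the 50-base words of Sod1, 23.1% occur in another gene, Gm8566. Per library Sod1 was 12883, 11701 and 14169 in wild type and 9147, 7993 and 8638 in knockout, a log2 change of -0.59 (limma, SE 0.10, adjusted p = 0.0027). With the trend removed its change was -0.01 (limma adjusted p = 0.956) on the longest transcript and -0.39 (adjusted p = 0.00762) on the median one. Ccs, the chaperone that loads copper into Sod1, fell from 1965 ± 134 to 1295 ± 58.8 (SD, n = 3 each), a log2 change of -0.60 (limma adjusted p = 0.00187). Ccs did not keep its call and direction in both fits with the trend removed.

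Sod3 (NCBI gene 20657, chromosome 5, 52755043 to 52760977), the secreted extracellular enzyme, was 484, 396 and 444 in wild type and 302, 269 and 327 in knockout. Its log2 change was -0.56 (limma, SE 0.13, adjusted p = 0.00984), and it was -0.58 (adjusted p = 0.0168) and -0.68 (adjusted p = 0.00613) in the limma fits with the trend removed. Sod2, the manganese enzyme of mitochondria, was 1372, 1436 and 1499.7 in wild type and 1252, 1287 and 1246 in knockout. Its groups were apart by a small margin, and the change of -0.19 (limma, SE 0.08, adjusted p = 0.111) did not pass. With the trend removed on the longest transcript Sod2 fell, by -0.69 (limma adjusted p = 0.00358), and on the median one its change had the other sign and did not pass, at 0.13 (adjusted p = 0.296).

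Of 88 tested partners outside the members, genes that feed or regulate these enzymes, 11 rose (12.5%) and 27 fell (30.7%). Across all genes 17.3% rose and 17.0% fell, so the share of partners that rose was below the background. The partners had a median log2 change of -0.24, and in the fit without the trend on the longest transcript 7 rose and 11 fell. Past the threshold in all 3 fits were 6 partners higher (6.82%) and 5 lower (5.68%), against 4.50% and 2.12% of all genes. Gss, Gclm, Gsr, Clic1, Ccs, Oxr1, Park7, Abcc1, Ftl1, Blvrb, Sepw1 and Cyba passed without trend removal. They did not keep call and direction in both fits with the trend removed. Among 22 genes of glutathione synthesis, recycling and transport, 4 rose and 7 fell. Gclc (NCBI gene 14629, chromosome 9, 77602342 to 77642296), the catalytic subunit of glutamate-cysteine ligase, which makes the first bond of glutathione, was 464, 496 and 504 in wild type and 762, 843 and 697 in knockout. Every knockout library was higher, with a log2 change of 0.65 (limma, SE 0.11, adjusted p = 0.00259), and Gclc also rose in both fits with the trend removed, by 0.51 (adjusted p = 0.00922) and 0.39 (adjusted p = 0.0178). Gclm, its modifier subunit, named here after its values were seen, was 520.5, 524 and 499 in wild type and 707, 691 and 732 in knockout. It rose by 0.46 (limma, SE 0.10, adjusted p = 0.00587), but its change was -0.03 with the trend removed on the longest transcript and 0.72 on the median one.

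Gss, the next enzyme of synthesis, went the other way, from 1007, 891 and 959 in wild type to 685, 553 and 704 in knockout, a log2 change of -0.56 (limma, SE 0.12, adjusted p = 0.00558). Gsr, glutathione reductase and also named after its values were seen, was 1937, 2284 and 2352 in wild type and 2654, 2689 and 2591 in knockout, a change of 0.28 (limma, SE 0.09, adjusted p = 0.0428). Its call was lost when any 1 library was left out, with an adjusted p of up to 0.183. Gstcd, which carries a GST-like domain, rose by 0.80 (limma adjusted p = 0.00309), and Clic1, a chloride channel with a GST-like fold, fell by 0.65 on the log2 scale (limma adjusted p = 0.0027). Along the glutathione chain, without trend removal, the ligase subunits were higher and the synthetase, the peroxidases and 11 of 22 tested transferases lower. With the trend removed on the longest transcript, Gclm was not higher, and 0 of 5 tested peroxidases fell. In that fit 2 of 19 cytosolic and kappa and 1 of 3 microsomal transferases fell. On the median transcript these counts were 4 of 5, 5 of 19 and 2 of 3.

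**Figure D5:**
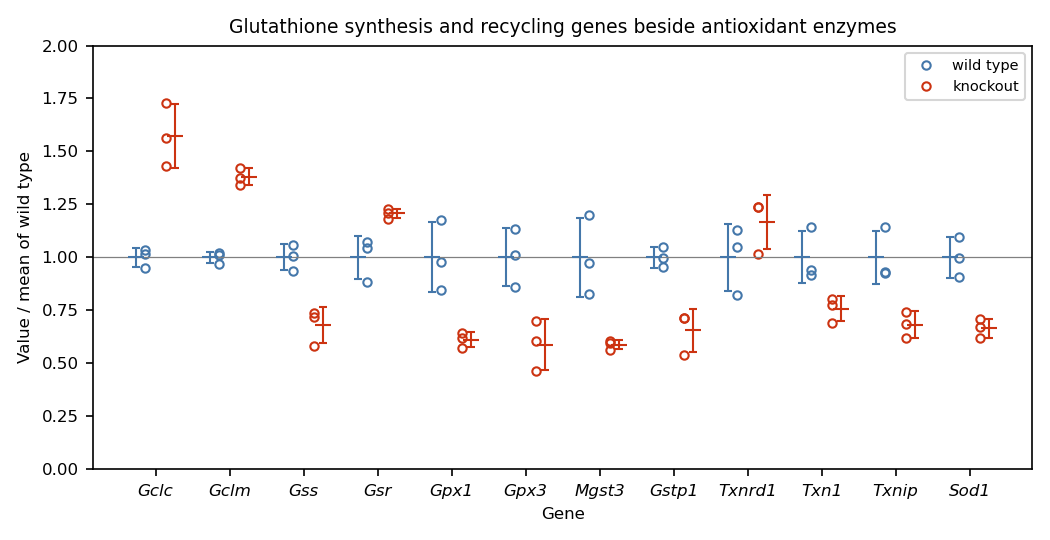
Values of 12 genes of glutathione synthesis, recycling and use and of the thioredoxin and superoxide dismutase systems, each divided by the gene's wild-type mean, in wild type (blue) and knockout (red). Circles are libraries, bars the mean and SD (n = 3); Gclc, Gclm and Gsr lie above 1 in all 3 knockout libraries, and Gss, Gpx1, Gpx3 and Mgst3 below 1.

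Of 21 tested NADPH, catalase and sulfiredoxin partners, 3 rose and 7 fell, where 17.3% of all genes rose and 17.0% fell. With the trend removed 2 rose and 0 fell on the longest transcript, and 3 rose and 3 fell on the median one. Nnt, the mitochondrial transhydrogenase that makes NADPH, rose from 1558 ± 173 to 2558 ± 257 (SD, n = 3 each), a log2 change of 0.72 (limma, SE 0.11, adjusted p = 0.00191). Oxr1 rose by 0.56 (limma adjusted p = 0.00724), and Park7, a peroxide-sensing protein, changed by -0.57 (limma adjusted p = 0.0037). Cat, catalase, was level at 0.02 (limma adjusted p = 0.869), and Srxn1, the sulfiredoxin that repairs overoxidised peroxiredoxins, did not pass at -0.20 (limma adjusted p = 0.298).

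Of 22 genes of the NRF2 pathway and its textbook targets, 5 rose and 4 fell, where 17.3% of all genes rose and 17.0% fell. With the trend removed 2 rose and 1 fell on the longest transcript, and 5 rose and 2 fell on the median one. Bach1 (NCBI gene 12013, chromosome 16, 87699199 to 87733591), a repressor that competes for the same element, was 315, 471 and 415 in wild type and 739, 777 and 790.5 in knockout. It rose by 0.96 (limma, SE 0.15, adjusted p = 0.00192), and passed in both fits with the trend removed, at 0.57 (adjusted p = 0.0189) and 0.52 (adjusted p = 0.019). Abcc1, an exporter of glutathione conjugates, rose by 0.39 (limma adjusted p = 0.0189). Ftl1, a ferritin chain, and Blvrb, biliverdin reductase B, changed by -0.74 (limma adjusted p = 0.00414) and -0.74 (limma adjusted p = 0.00438). Nfe2l2, which encodes NRF2, did not pass at 0.21 (limma adjusted p = 0.127), nor did its inhibitor Keap1 at -0.22 (limma adjusted p = 0.088) or the common target genes Nqo1 at -0.08 (limma adjusted p = 0.649) and Hmox1 at -0.18 (limma adjusted p = 0.244).

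Among 16 genes of selenoprotein synthesis and other selenoproteins, 1 rose and 8 fell, where 17.3% of all genes rose and 17.0% fell. With the trend removed 1 rose and 4 fell on the longest transcript, and 1 rose and 8 fell on the median one. The riser was Secisbp2, which binds the element that directs selenocysteine insertion, at 0.42 (limma adjusted p = 0.0196), a call lost without knockout library 5 or wild-type library 4. Selm was 3888, 3124 and 3864 in wild type and 1823, 1546 and 1894 in knockout, a log2 change of -1.04 (limma, SE 0.11, adjusted p = 0.000818), and it fell in both fits with the trend removed as well. Sepw1 changed by -0.76 (limma adjusted p = 0.00248). Of 11 genes for oxidant-producing enzymes, 1 fell, Cyba, a membrane subunit of the NADPH oxidases, at -0.79 (limma adjusted p = 0.00181).

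Changes of cell type markers were mixed for most lists, and their part in the falls of the members was not tested. Across all genes tested, 17.3% rose and 17.0% fell. Of 11 macrophage markers 0 rose and 6 fell, and their summed values were 2913 to 4013 in wild type and 1787 to 2097 in knockout. Of 12 Sertoli cell markers, 1 rose (Wt1) and 4 fell, the targeted Ptgds among the 4, with sums of 148216 to 176404 and 102971 to 138196. Ptgds is part of these sums, at 6560.1 to 8712 in wild type and 2.94 to 15.2 in knockout. Part of the difference in the Sertoli sums was thus set by the genotype. The groups overlapped for Amh, the most abundant of the 12, and for Sox9, Dhh, Gata4, Cst9, Aard and Mro. With the trend removed on the longest transcript, 1 Sertoli cell marker rose and 2 fell, and 4 macrophage markers fell. On the median transcript 1 Sertoli cell marker rose and 4 fell, and 5 macrophage markers fell. Of 11 Leydig cell markers 1 rose and 3 fell, and of 12 interstitial markers 4 rose and 3 fell, with overlapping sums. Germ cell markers had 2 of 12 higher and 1 lower, endothelial markers 2 of 10 higher and 3 lower, mesonephric markers 2 of 10 higher and 1 lower, and adrenal-like markers 0 of 4 higher and 1 lower. Macrophage sums, Sertoli sums with Ptgds included, and those of the 4 adrenal-like markers were lower in all 3 knockout libraries. Germ cell, interstitial, endothelial, mesonephric and erythroid sums overlapped between the groups.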

How the data were processed

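Libraries were made from total RNA of male gonads with an Illumina TruSeq kit, per the labels' protocols. The deposited table holds a signal for each gene and library, the authors' upper-quartile normalised pseudo-counts. Per the submitters' processing notes, CASAVA 1.8.2, edgeR 2.6.2 and the genome build mm9 were used; the sources used here do not state the role of each, the aligner or the annotation. Reads of near-identical genes may have been split or lost there. Coordinates are those of the deposited table.

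All 6 columns matched a library by name, leaving 0 unmatched. Values were analysed as log2(value + 1) in R 4.3.3 with limma 3.58.1, by its moderated test with a mean-dependent prior, two-sided, on the 15116 genes that reached 10 in 3 or more libraries. P-values were adjusted over all of them by Benjamini-Hochberg, with a threshold of 0.05. Changes of low genes are understated on this scale. For 1 gene, an exact permutation test of 3 libraries against 3 has a smallest p of 0.1. The trend was removed per library by natural splines (4 degrees of freedom) on log2 transcript length and on GC content, from GENCODE vM21 on GRCm38, matched by NCBI gene identifier without coordinates. It had a length for 14449 of the genes (95.6%) and for all 53 members. The fits were tested on simulated data. Promoter windows came from RefSeq on GRCm38.p6. Shared 50-base words were counted in annotated transcripts. Python 3.11.15 with matplotlib 3.10.9 made the figures.

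The members, the partner and marker lists, the tests and the alternatives were chosen with earlier results of these data known, so no count over a list is independent evidence. Genes named were the targeted genes, up to 14 members past the threshold in each direction by size of change, the most abundant member of each class, and up to 2 genes per direction from each partner list; others are named to account for a small count, for a role in the pathway or for a library that stands apart.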

Additional observations from a re-analysis of the deposited data

How the results depend on the processing

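The sums and upper quartiles follow from the authors' scaling, the depth is unknown, and 3 libraries a group limit precision. With 0.5, 5 or 10 as pseudocount or a filter at 50, 30 members fell, and 28 with scaling by median of ratios or no filter. Scaling to equal totals raised the median change of all genes by 0.1, with 3507 genes higher and 1687 lower (2609 and 2571 as reported) and 21 members lower. At a threshold of 0.1, 3266 and 3375 genes and 36 members (0 higher) passed. Leaving out each library in turn gave 1664 to 2500 genes higher, 1434 to 2538 lower, 19 to 29 members lower, 6 to 10 partners higher and 20 to 25 lower, in each case fewest without wild-type library 4. The 19 members without that library were all among the 30. Removing the trend on the longest transcript gave 877 genes higher and 959 lower, 11 members lower, and 7 partners higher and 11 lower; with wild-type library 1 also left out these were 866, 898, 11, 6 and 12. On the median transcript 1633 genes were lower, against 1840 higher. The increase of Hpgds missed the threshold in these 3 fits, at 0.60 (limma adjusted p = 0.0917), 0.55 (adjusted p = 0.123) and 0.48 (adjusted p = 0.124). The change had the other sign for 14 of 53 members on the longest transcript and 5 on the median one, with no call there, and for 5 members when some single library was left out (Gsto2, Gstm3, Mgst1, Txnl1 and Txndc2). Among the genes named by rule these were Gpx4 at 0.0675 and, with wild-type library 1 left out, 0.0526, Gstm2 at 0.11 and Mgst1 at 0.0538, all on the longest transcript, and Mgst1 in leaving out single libraries, from -0.31 to 0.00137. The cause was not tested. Of 33 named genes, 9 kept their call and direction with the trend removed on the longest transcript and 28 on the median one. No member rose under any setting listed here. No paired analysis was possible because the library numbers 1, 3 and 4 and 5, 7 and 8 are not shared between the groups.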

Other observations

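Knockout library 7 stood farthest from the other 2 knockout libraries for many members. It was the farthest of its group from the group's other libraries for 38 of 53 members (71.7%), against 47.5% of all genes. Relative to the mean of knockout libraries 5 and 8 on the log2 scale, it was higher for Gsta2 by 0.80, Prdx4 by 0.62, Prdx1 by 0.53 and Mgst1 by 0.50. It was lower for Gstm7 at -0.51, Gpx3 at -0.49, Gstp1 at -0.41 and Gstm1 at -0.40.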
